A study of Mus musculus with 38 samples.

Results

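The genes described here encode the pore-forming alpha1 subunits of voltage-gated calcium channels: Cacna1a, Cacna1b, Cacna1c, Cacna1d, Cacna1e, Cacna1g, Cacna1h, and Cacna1i. They were chosen by gene name in the count table, where each of the 8 symbols matched 1 of 54165 genes. The data are 38 RNA-seq libraries of prefrontal cortex (PFC) or hypothalamus (Hypo), dissected as bulk tissue from 25 adult FVB/NJ mice. The study was made to examine whether an increased dosage of Ube3a, a gene that encodes a ubiquitin ligase, affects males and females differently. Ube3a2X mice (Ube3a2x in the labels) were homozygous for a transgene that adds copies of Ube3a with a tag at the C terminus, so every tissue of the animal carried it. Their wild-type (WT) littermates lacked it, and the labels name no treatment. The PFC was sampled with micropunches from 5 mice of each sex and genotype. The Hypo was excised whole from 4 WT females, 4 WT males, 5 Ube3a2X females, and 5 Ube3a2X males, and 13 mice gave both tissues. In what follows, each library is named by its group and the number of its mouse.

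An alpha1 subunit forms the pore and the voltage sensor of a channel through which calcium enters a cell on depolarization, and auxiliary beta and alpha2delta subunits govern how much of it reaches the membrane and how it gates. Cav1 channels (Cacna1c, Cacna1d) carry the dihydropyridine-sensitive L-type current and couple activity to transcription. Cav2 channels (Cacna1a, Cacna1b, Cacna1e) carry the P/Q-, N-, and R-type currents and drive transmitter release, whereas Cav3 channels (Cacna1g, Cacna1h, Cacna1i) open near the resting potential, carry the T-type current, and support burst firing.

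In GENCODE vM21 (GRCm38), Cacna1c (ENSMUSG00000051331) occupies chr6:118587240-119196418 on the minus strand and Cacna1d (ENSMUSG00000015968) chr14:30039939-30491455 on the minus strand. Cacna1a (ENSMUSG00000034656) lies at chr8:84388440-84640246 on the plus strand. Cacna1b (ENSMUSG00000004113) lies at chr2:24603887-24763152 and Cacna1e (ENSMUSG00000004110) at chr1:154390731-154884501, both on the minus strand. Cacna1g (ENSMUSG00000020866) lies at chr11:94408391-94474198 and Cacna1h (ENSMUSG00000024112) at chr17:25374285-25433783, both on the minus strand, and Cacna1i (ENSMUSG00000022416) at chr15:80287238-80398279 on the plus strand. Reads were counted on exons, whose merged length ran from 9763 bases in Cacna1h to 25228 bases in Cacna1e. The GC content of the longest transcript ran from 48.3% in Cacna1e to 60% in Cacna1h. Expressed genes on the opposite strand overlapped Cacna1d (Chdh, which shared 589 exon bases, 4.67% of the Cacna1d exons, and Dcp1a, which shared 0) and Cacna1c (Dcp1b, which shared 0). If strand was not used in counting, reads from the shared stretch of Cacna1d and Chdh cannot be told apart.

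The 250 bases upstream of the RefSeq start (GRCm38.p6) are printed for 2 members with 1 start each in that table, because Cacna1i was among the members with the widest difference between the tissues, and Cacna1b was the most abundant member per exon length in both. The Cacna1i stretch is chr15:80286988-80287237 on the plus strand and the Cacna1b stretch chr2:24763153-24763402 on the minus strand. Capitals mark the GC box, searched as GGGCGG on both strands.
Cacna1i: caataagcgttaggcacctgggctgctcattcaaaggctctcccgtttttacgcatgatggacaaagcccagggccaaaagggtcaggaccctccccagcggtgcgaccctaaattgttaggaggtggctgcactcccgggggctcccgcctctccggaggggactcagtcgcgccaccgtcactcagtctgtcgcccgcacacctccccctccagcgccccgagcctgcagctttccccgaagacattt
Cacna1b: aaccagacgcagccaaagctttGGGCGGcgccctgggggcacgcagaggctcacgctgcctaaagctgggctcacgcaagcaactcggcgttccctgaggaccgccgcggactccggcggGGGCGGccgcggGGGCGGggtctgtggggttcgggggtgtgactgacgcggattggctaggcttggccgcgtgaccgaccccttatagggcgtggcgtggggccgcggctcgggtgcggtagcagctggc
The Cacna1i stretch held 0 GC boxes at a GC content of 62.4%, and the Cacna1b stretch held 3 at 72%. Of 32817 such upstream stretches in the table, 32.7% held a GC box, and their median GC content was 52.4%. Such a match describes the sequence and not the binding of a factor. Cacna1a, Cacna1g, and Cacna1h have no entry in that table.

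The libraries held 36.9 to 69.1 M reads (M stands for mega) counted on genes in the PFC (median 57.6) and 39.05 to 380.8 M in the Hypo (median 68.9). The lowest count of any member in any library was 830 reads (Cacna1d). The level of Ube3a, in CPM (reads scaled to the library size after TMM normalization), was 108 to 350 in WT and 663 to 2239 in Ube3a2X libraries, with no overlap in either tissue. The 6 markers of cortical projection neurons summed to 1967 to 2566 CPM in the PFC and 8.23 to 20.03 CPM in the Hypo, and 9 markers of the hypothalamus to 0.755 to 2.01 and 456 to 2082 CPM. The RNA integrity number (RIN) had a median of 7.6 in the PFC and 8.95 in the Hypo. Other quality measures also moved with the tissue, with medians (PFC first) of 0.442 and 0.735 for the bias between transcript ends, 93.7% and 98.4% for expected-strand reads, 18.2 and 21.4 for AT dropout, and 44.1% and 48.8% for coding bases. The part of these in the tissue differences was not tested. PFC and Hypo RNA were isolated with different kits, and 500 ng and 1000 ng went into a library, so tissue, kit, and RNA input cannot be told apart. Hypo WT female 471 stood apart: Gh and Prl, hormones of the anterior pituitary, reached 1086 and 3640 CPM against at most 367 and 729 CPM in any other Hypo library. This library also had 37.6% coding bases, against 46.2% to 51.1% in the other Hypo libraries. Its end bias (0.489) and expected-strand share (95.7%) were the lowest of the Hypo. Its hypothalamic markers summed to 2082 CPM, against at most 855 CPM in the others. The part of these in its alpha1 levels was not tested. Its level of each alpha1 gene was 0.392 (Cacna1d) to 0.587 (Cacna1h) of the mean of the other Hypo WT females. The tissue differences, the correlations between members, and some of the effects within the Hypo are also given without it.

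The first comparison addressed whether the alpha1 genes were expressed at different levels in PFC and Hypo. Cacna1a, which encodes the P/Q-type subunit, was 1.91-fold higher in the PFC, Cacna1i, a T-type subunit, 1.58-fold, Cacna1e, the R-type subunit, 1.42-fold, and Cacna1d, an L-type subunit, 1.22-fold, whereas Cacna1h, another T-type subunit, was 1.21-fold higher in the Hypo. These 5 of 8 members passed an adjusted p of 0.05 in edgeR's quasi-likelihood test with Benjamini-Hochberg adjustment over all 14219 genes tested, averaged over sex and genotype with RIN as a covariate. Such a call was common, since 68.4% of all genes passed, 32.8% with higher expression in PFC and 35.6% with higher expression in Hypo. The median log2 difference (PFC minus Hypo) was 0.27 over the 8 members and -0.02 over all genes. In bulk tissue, fewer cells of a type and less RNA per cell cannot be told apart.

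**Figure D1:**
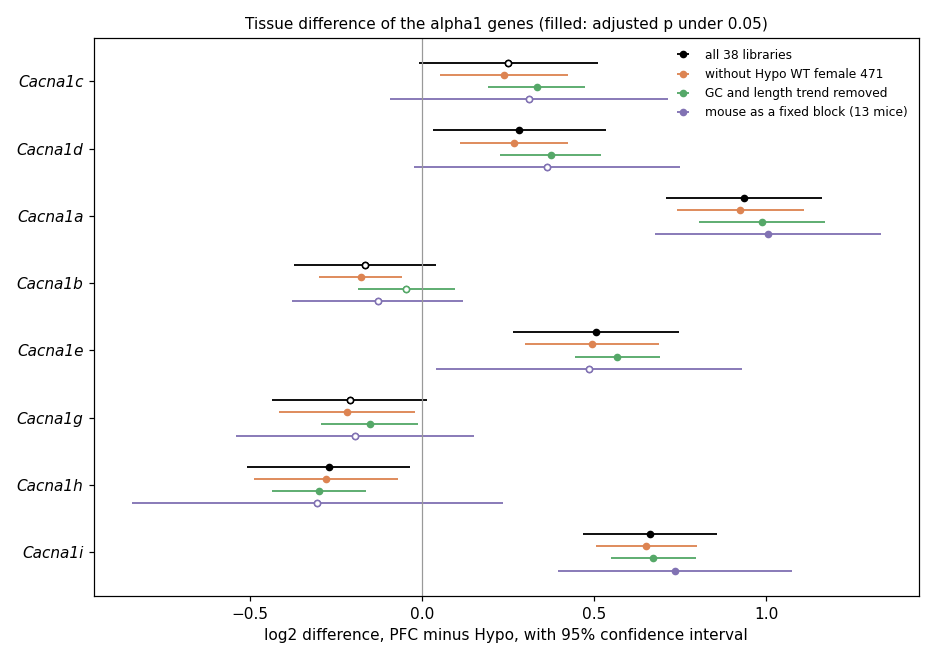
Log2 difference in expression between PFC and Hypo (x axis, PFC minus Hypo, edgeR) for the 8 alpha1 genes (y axis), averaged over sex and genotype, with 95% confidence intervals. Fits are shown for all 38 libraries and without Hypo WT female 471. Further fits removed each library's trend on GC content and exon length, or took each mouse as a replicate block. In the fit of all libraries, Cacna1a lies farthest toward PFC at 0.94, and Cacna1h farthest toward Hypo at -0.27.

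Of the Cav1 genes, Cacna1c, the main L-type subunit of brain, heart, and smooth muscle, had 71.8 CPM in the lowest, 90.3 in the median, and 129.4 in the highest PFC library, and 33.6, 79.6, and 106 CPM in the Hypo. Its ranges overlapped, with 2 of 20 PFC libraries above every Hypo library. The log2 difference was 0.25 (95% confidence interval -0.01 to 0.51), which did not pass (adjusted p = 0.0801). It fell to 0.09 without PFC Ube3a2X female 468 (adjusted p = 0.514) and passed at 0.295 without PFC WT male 251 (adjusted p = 0.0481). Cacna1d, the L-type subunit that opens at more negative voltages and serves pacemaking, had 50.5, 61.0, and 67.9 CPM in the PFC and 19.98, 50.3, and 77.3 CPM in the Hypo. No PFC library exceeded the highest Hypo library, Ube3a2X male 238. Its log2 difference of 0.28 (SE 0.123, interval 0.03 to 0.53) passed narrowly (adjusted p = 0.0426), and it lost the call in 17 of 38 refits with a single library omitted, with values of 0.21 to 0.32.

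Of the Cav2 genes, Cacna1a, the subunit that dominates fast release at many central synapses, separated the tissues in every library. Its levels in PFC WT mice were 159.4, 158.9, 153, 153, and 229 CPM in females and 144, 161, 153, 167, and 164 CPM in males. In PFC Ube3a2X mice they were 140.1, 151, 154, 139.8, and 194 CPM in females and 159.6, 138, 185, 157.5, and 148.6 CPM in males. PFC WT female 397 was the highest of all, far above the others of its group, followed by PFC Ube3a2X female 468 and male 258. These 3 libraries also had the highest shares of coding bases in the PFC (51.9%, 48.9%, and 51.0%) and the lowest TMM factors (0.890, 0.825, and 0.885), and the part of this in their levels was not tested.

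Cacna1a levels in the Hypo were 77.9, 89.0, 90.5, and 46.5 CPM in WT females and 83.7, 81.0, 72.5, and 88.0 CPM in WT males. In Hypo Ube3a2X mice they were 77.1, 80.3, 94.0, 91.6, and 91.7 CPM in females and 126, 85.4, 98.2, 85.99, and 85.3 CPM in males. Every PFC library was higher than every Hypo library, and the Hypo extremes were WT female 471 (lowest) and Ube3a2X male 238 (highest). The log2 difference was 0.94 (SE 0.111, interval 0.71 to 1.16, adjusted p = 3.92e-09). In the 13 mice with both tissues, Cacna1a was higher in the PFC in 13, by a median of 0.87 on the log2 scale.

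Cacna1b, the N-type subunit and the target of omega-conotoxin GVIA, had 141, 158, and 181.5 CPM in the lowest, median, and highest PFC library and 78.4, 174, and 213.5 CPM in the Hypo. Its ranges overlapped, and the log2 difference of -0.17 (interval -0.37 to 0.04) did not pass (adjusted p = 0.148), although the Hypo was higher in 11 of the 13 mice. Cacna1e, the R-type subunit, had the most reads of the 8 genes, with 271, 326, and 444.5 CPM in the PFC and 135, 247, and 344 CPM in the Hypo. It was higher in the PFC in 11 of 13 mice, and 8 of 20 PFC libraries lay above every Hypo library. Its log2 difference was 0.51 (SE 0.118, interval 0.27 to 0.75, adjusted p = 0.000325).

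Of the Cav3 genes, Cacna1i, a T-type subunit with slow kinetics that is largely restricted to neurons, separated the tissues as Cacna1a did. Its levels in PFC WT mice were 123, 129.9, 118, 102, and 124.5 CPM in females and 97.4, 115, 109, 108, and 105 CPM in males. In PFC Ube3a2X mice they were 102, 119, 109.7, 119, and 106.5 CPM in females and 122, 96.3, 92.5, 120.3, and 119 CPM in males. No PFC group stood above the others, and the lowest PFC value came from a Ube3a2X male.

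Cacna1i levels in the Hypo were 58.9, 79.7, 73.2, and 38.8 CPM in WT females and 57.6, 61.7, 64.3, and 66.7 CPM in WT males. In Hypo Ube3a2X mice they were 61.8, 62.9, 79.8, 71.5, and 68.7 CPM in females and 68.3, 71.8, 74.8, 70.2, and 58.8 CPM in males. The tissues did not overlap, and the lowest Hypo library was again WT female 471. The log2 difference was 0.66 (SE 0.0953, interval 0.47 to 0.86, adjusted p = 1.99e-07), and the PFC was higher in 13 of 13 mice by a median of 0.73. Cacna1a and Cacna1i were the 2 members whose CPM did not overlap between the tissues, against 25.9% of all genes (14% higher in PFC and 11.9% higher in Hypo).

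Cacna1g, the T-type subunit of thalamic relay bursting, had 68.4, 88.7, and 113.5 CPM in the lowest, median, and highest PFC library and 55.2, 92.7, and 112 CPM in the Hypo. These ranges almost coincided, and the log2 difference of -0.21 (interval -0.43 to 0.02) did not pass (adjusted p = 0.0935) and was -0.06 without RIN as a covariate. Cacna1h, the nickel-sensitive T-type subunit, had 32.1, 41.4, and 51.9 CPM in the PFC and 28.8, 50.9, and 67.2 CPM in the Hypo. It was the only member called higher in Hypo in the fit of all libraries, with a log2 difference of -0.27 (SE 0.116, interval -0.51 to -0.04, adjusted p = 0.0384), and the Hypo was higher in 9 of 13 mice. The call was lost in 6 of 38 fits without 1 library.

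**Figure D2:**
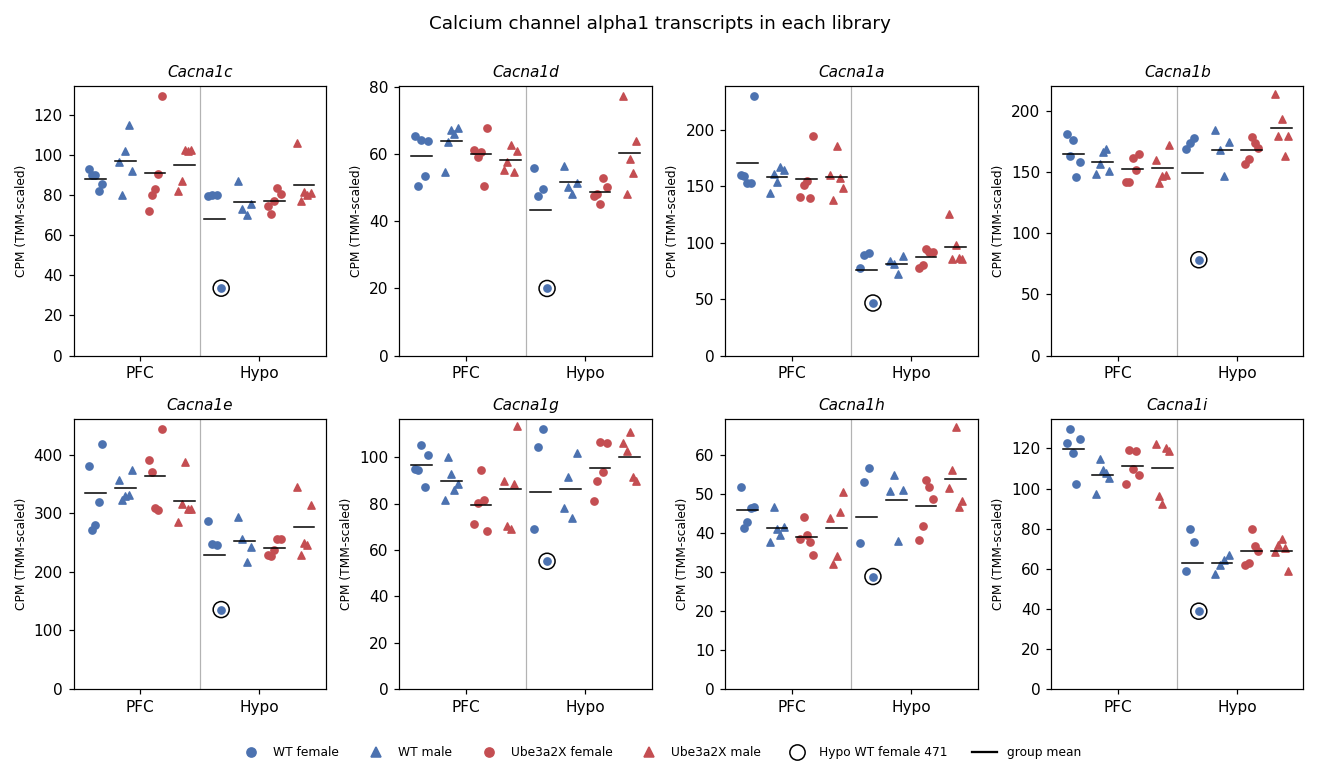
Expression of the 8 alpha1 genes (panels) in every library, as TMM-normalized CPM (y axis), by tissue, genotype, and sex (x axis). Cacna1a and Cacna1i show no overlap between PFC and Hypo, and the lowest Hypo WT female value in each panel is mouse 471.

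Without Hypo WT female 471, all 8 members passed, beside 72.9% of all genes. Cacna1a (log2 0.92), Cacna1i (0.65), Cacna1e (0.49), Cacna1d (0.27), and Cacna1c (0.24) were then higher in PFC. Cacna1h (-0.28), Cacna1g (-0.22), and Cacna1b (-0.18) were higher in Hypo. Adjusted p in this fit ran up to 0.0438 (Cacna1g). The differences stayed close to those with this library, while their confidence intervals narrowed. Leaving out PFC WT female 262 or Hypo WT male 423 lowered the number of members called from 5 to 3. With each mouse as a replicate block in the 13 mice with both tissues (1 WT female), 2 members passed: Cacna1a at 1.004 (adjusted p = 0.000199) and Cacna1i at 0.74 (adjusted p = 0.00238). Cacna1e at 0.49 (adjusted p = 0.0758), Cacna1d at 0.36 (adjusted p = 0.122), and Cacna1h at -0.31 (adjusted p = 0.354) kept their direction and missed the threshold with this pairing, in which 41.8% of all genes passed. With each library's trend on GC content and exon length removed, 7 members passed beside 74.6% of all genes, and Cacna1b at -0.05 did not (adjusted p = 0.565).

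Markers of other cell types moved with the tissue. Of 4 general neuronal markers, 3 were higher in PFC, with sums of 7063 to 11880 CPM in PFC and 2060 to 2707 CPM in Hypo and a median log2 difference of 1.69, larger than that of any alpha1 gene. All 4 oligodendrocyte markers were higher in Hypo (811 to 2792 CPM against 2531 to 4463 CPM), and 2 of 4 astrocyte markers as well (672 to 1890 against 1295 to 1747 CPM). All 4 microglial markers (168 to 299.5 against 127.5 to 173 CPM) and 3 of 4 endothelial and mural markers (106 to 283 against 93.7 to 123 CPM) were higher in PFC. Of 6 markers of inhibitory neurons, 2 were higher in each tissue (767 to 1042 against 651 to 1259 CPM). Markers of the thalamus (110.1 to 207 against 89.1 to 161 CPM) and the striatum (42.2 to 109 against 67.6 to 81.6 CPM) overlapped in their sums. Of 5 thalamic markers, 1 was higher in PFC and 3 in Hypo, and of 4 striatal markers tested, 2 were higher in each. The sums of the markers of the choroid plexus (0.904 to 3.60 against 9.94 to 33.9 CPM) and the pituitary (0.0305 to 2.17 against 14.98 to 4795 CPM) were higher in Hypo. Of 3 choroid plexus markers, 1 had enough reads to be tested, and of 4 pituitary markers, 2. Those tested were higher in Hypo. Gh, not tested, was at 0 CPM in its lowest Hypo library. The part of cell composition in the tissue differences of the alpha1 genes was not tested.

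The tissue difference was next examined within each genotype. In WT mice, 5 members passed, all with higher expression in PFC: Cacna1a (log2 1.07, SE 0.122, adjusted p = 1.83e-09), Cacna1i (0.77), Cacna1e (0.54), Cacna1d (0.41), and Cacna1c (0.34, adjusted p = 0.0354), whose call was lost in 5 of 38 refits with a single library omitted (0.23 without PFC Ube3a2X female 468). Of all genes, 65.1% passed in WT, 30.7% higher in PFC and 34.4% higher in Hypo. Cacna1h (-0.14), Cacna1b (-0.03), and Cacna1g (0.01) did not pass. With the mouse as a replicate block, Cacna1a and Cacna1i alone kept the call in WT, in which 4 mice were WT. Without Hypo WT female 471, the same 5 members passed in WT, from 0.26 (Cacna1c) to 1.009 (Cacna1a), beside 69% of all genes.

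In Ube3a2X mice, 6 members passed. Higher in PFC were Cacna1a (0.80, SE 0.144, adjusted p = 1.23e-05), Cacna1i (0.55, adjusted p = 0.000237), and Cacna1e (0.48, adjusted p = 0.00739). Higher in Hypo were Cacna1g (-0.43, adjusted p = 0.0114), Cacna1h (-0.41, adjusted p = 0.0214), and Cacna1b (-0.30, adjusted p = 0.0471). Of all genes, 61.6% passed, 30.1% higher in PFC and 31.5% higher in Hypo. RIN, a covariate, was 6.7 to 8.3 in Ube3a2X PFC and 8.8 to 9.3 in Ube3a2X Hypo, without overlap. Before that adjustment, mean log2-CPM of Cacna1g was 6.30 (females) and 6.41 (males) in PFC and 6.57 and 6.64 in Hypo. The means were 5.28, 5.34, 5.54, and 5.74 for Cacna1h in that order, and 7.25, 7.26, 7.39, and 7.53 for Cacna1b. Without Hypo WT male 423, whose RIN of 6.8 was the lowest of the Hypo, 3 of these 6 calls remained past the threshold. Without Hypo WT female 471, the same 6 passed, from -0.39 (Cacna1g) to 0.84 (Cacna1a), beside 66.5% of all genes. The call of Cacna1b was lost in 19 of 38 refits with a single library omitted and in 5 of 8 other settings. With the mouse as a replicate block, 4 of the 6 passed, and Cacna1h (-0.52, adjusted p = 0.169) and Cacna1b (-0.23, adjusted p = 0.192) did not.

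Whether the tissue difference itself changed with genotype was tested as an interaction. All 8 members had a lower PFC minus Hypo difference in Ube3a2X than in WT mice, from -0.06 (Cacna1e) to -0.45 (Cacna1g) on the log2 scale. None passed, and the smallest adjusted p was 0.470, for Cacna1g (interval -0.75 to -0.14). In the same fit, Cacna1b at -0.27 also had an interval that excluded 0 (adjusted p = 0.576). With the mouse as a replicate block, Cacna1g was at -0.77 (interval -1.09 to -0.44, adjusted p = 0.765), while Cacna1c (0.013) and Cacna1e (0.281) turned positive. Over all genes this test called 0 of 14219 in edgeR (0%), with 1231 genes at an unadjusted p under 0.05, and 0 in DESeq2. The members share all libraries in this contrast, so their values are not separate results, and without Hypo WT female 471 the differences ran from -0.35 to 0.05.

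The interaction of sex and tissue called no member either (smallest adjusted p = 0.528, Cacna1d at -0.25), beside 0.0633% of all genes. The triple interaction of sex, genotype, and tissue called 0% of genes in edgeR, with 453 at an unadjusted p under 0.05 and no member among them.

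Levels were then compared between members per kilobase of exon. In PFC the median ran in the order Cacna1b (15.9 CPM per kb), Cacna1a (13.7), Cacna1e (12.9), Cacna1i (11.4), Cacna1g (8.75), Cacna1d (4.84), Cacna1c (4.26), and Cacna1h (4.24). Only the step from Cacna1g to Cacna1d separated neighbours without overlap over the 20 libraries. Cacna1i was above Cacna1g within 20 of 20 libraries, Cacna1b above Cacna1a and Cacna1e above Cacna1i within 17, Cacna1a above Cacna1e and Cacna1d above Cacna1c within 13. Cacna1c and Cacna1h could not be ordered, with Cacna1c higher in 10 of 20.

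In Hypo the order was Cacna1b (17.5 CPM per kb), Cacna1e (9.79), Cacna1g (9.14), Cacna1a (7.51), Cacna1i (6.85), Cacna1h (5.21), Cacna1d (3.98), and Cacna1c (3.76). All neighbours overlapped in range over the 18 libraries. For Cacna1b and Cacna1e this rested on Hypo WT female 471, which had 7.88 CPM per kb of Cacna1b. In the other Hypo libraries Cacna1b was at 14.7 or more and Cacna1e at 13.6 or less. Cacna1b was above Cacna1e, and Cacna1i above Cacna1h, within every Hypo library, whereas Cacna1e was above Cacna1g in 10 of 18. By this median, Cacna1a ranked above Cacna1e (in 13 of 20 libraries) and Cacna1g in PFC and below both in Hypo. Divided by the longest annotated transcript instead of all merged exons, the first place in PFC passed to Cacna1e (21.8 CPM per kb, with Cacna1a at 19.7 and Cacna1b at 16.2), while Cacna1b stayed first in Hypo (17.8, with Cacna1e at 16.6). By that measure Cacna1a was below Cacna1e in both tissues, and in Hypo it was at 10.8 beside Cacna1g at 11.1.

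**Figure D3:**
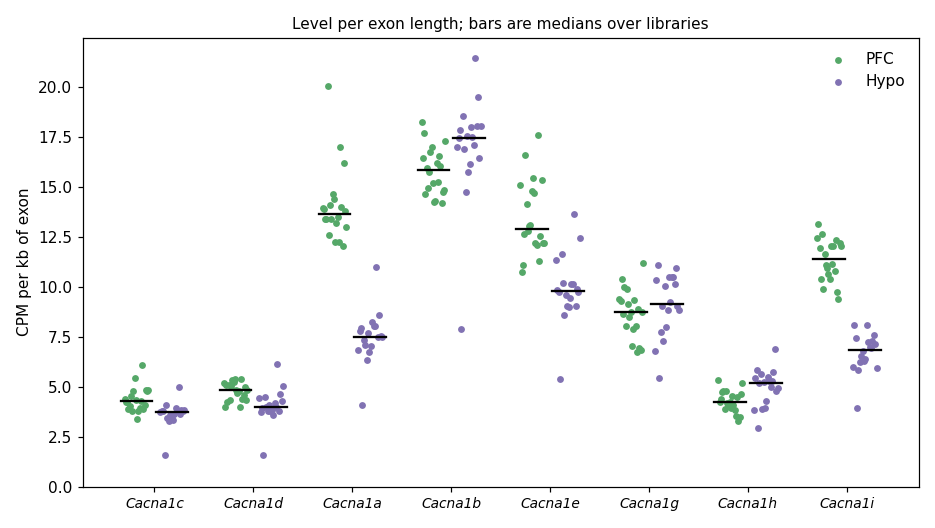
Expression of each alpha1 gene (x axis) per kilobase of merged exon (y axis, TMM-normalized CPM per kb) in every PFC and Hypo library, with a bar at the median. Cacna1b is highest in both tissues, at 15.9 in PFC and 17.5 in Hypo.

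As a share of the summed level of the 8 genes per kilobase, which describes the makeup of the family within a library, the Cav1, Cav2, and Cav3 classes had medians of 11.8%, 56.1%, and 32.5% in PFC and 12.02%, 54.2%, and 33.4% in Hypo. The class shares overlapped, as did the shares of 5 members, while those of Cacna1a, Cacna1b, and Cacna1i did not. Cacna1a made up 16.2% to 22.5% in PFC and 11.2% to 13.8% in Hypo, and Cacna1b 17.9% to 22.7% in PFC and 24.02% to 28.6% in Hypo, both without overlap. Cacna1i made up 12.4% to 17.3% in PFC and 8.67% to 12.2% in Hypo, again without overlap. Hypo WT female 471 is included, with shares of 12.4% for Cacna1a, 24.02% for Cacna1b, and 11.98% for Cacna1i, although its summed level of 32.8 CPM per kb was the lowest, against a Hypo median of 65.0 and a PFC range of 67.5 to 89.1. Shares add to a fixed total, so the fall of 1 member raises the others.

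Within each tissue, the effects of genotype, sex, and their interaction on the alpha1 genes were tested with RIN and 2 surrogate variables as covariates. No member passed in any of the 10 comparisons in edgeR, DESeq2, or limma-voom. The shares of all genes called that follow are those of edgeR. The study, which used limma-voom, reported genes called for the sex*genotype interaction in the PFC but no gene in the Hypo. In the PFC 7 members were tested. Cacna1b varied so little between PFC libraries that it was removed with the 15% of genes of lowest variance, and its values come from a fit without that filter.

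In the PFC, the main effect of genotype (Ube3a2X minus WT) on the log2 scale ran from -0.13 (Cacna1g) to -0.01 (Cacna1i) over the 7 members, with 95% intervals within -0.29 to 0.11, that is, from 0.818- to 1.08-fold. Genotype called 0.0183% of all genes. In females it ran from -0.21 to 0.00 (0.00917% of genes called) and in males from -0.10 to 0.05 (0.0183%). The main effect of sex (male minus female) ran from -0.11 (Cacna1i) to 0.09 (Cacna1d), with 0.0917% of genes called. The sex*genotype interaction ran from -0.08 (Cacna1d) to 0.23 (Cacna1a), with intervals within -0.35 to 0.48. It called 0% of 10900 genes in edgeR, with 2766 at an unadjusted p under 0.05 and no member among them, and the smallest adjusted p of a member was 0.224 (Cacna1a). With the trend on GC content and length removed, all 7 interaction values were negative, from -0.20 (Cacna1i) to -0.06 (Cacna1e), with Cacna1a at -0.13.

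In the main fit, with that trend left in, Cacna1a had the only interval that excluded 0 in the PFC, for genotype in females (log2 -0.21, interval -0.39 to -0.03, adjusted p = 0.312). The 5 WT and 5 Ube3a2X female values listed above overlapped, and each group held 1 library far above the rest, WT 397 and Ube3a2X 468. Without WT female 397 the gene fell under the variance filter and was not tested. With RIN as the only covariate the difference was -0.07, and with the trend on GC content and length removed it was 0.00. In that last fit, the intervals that excluded 0 were those of Cacna1a for genotype in males (-0.13, interval -0.23 to -0.02) and Cacna1i for sex (-0.14, interval -0.26 to -0.03), neither of them called.

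In the Hypo, the main effect of genotype ran from -0.05 (Cacna1e) to 0.14 (Cacna1g) over 8 members, with intervals within -0.18 to 0.25, or 0.886- to 1.19-fold, beside 0.00843% of all genes called. In females it ran from -0.11 to 0.07 (0.00843% of genes called). In males it ran from 0.01 to 0.20, where edgeR called 0% of genes (1084 at an unadjusted p under 0.05). Without Hypo WT female 471, the male values of Cacna1b, Cacna1c, Cacna1e, and Cacna1h were negative, down to -0.035. The sex*genotype interaction ran from 0.02 to 0.15 and was called in 0% of 11869 genes (872 at an unadjusted p under 0.05, no member among them). Without Hypo WT female 471 the interaction was -0.04 for Cacna1a and -0.06 for Cacna1h, and with the trend on GC content and length removed it was negative for Cacna1a, Cacna1c, Cacna1e, and Cacna1i. All members shared the same libraries in these contrasts.

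Cacna1g had the widest effect of the members for genotype in the Hypo. Its levels were 69.1, 105, 112, and 55.2 CPM in WT females and 78.3, 91.8, 73.9, and 102 CPM in WT males. In Ube3a2X mice they were 81.2, 89.7, 107, 93.6, and 106 CPM in females and 106, 103, 111, 91.6, and 89.6 CPM in males. The genotypes overlapped in both sexes, and the 4 lowest values were all from WT mice. The log2 effect was 0.14 (interval 0.02 to 0.25, adjusted p = 0.944) over both sexes and 0.20 (adjusted p = 0.534) in males. Leaving out 1 library at a time moved the effect of Cacna1g between 0.08 and 0.16 over both sexes and between 0.122 and 0.245 in males. Over both sexes it was 0.25 with RIN as the only covariate. In males it ran from 0.13 to 0.39 over the other settings, with the highest under no filter on low counts. None of these values passed the threshold.

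For sex in the Hypo, where 2.33% of all genes were called, the members ran from -0.07 (Cacna1i) to 0.14 (Cacna1h). Cacna1h had 37.4, 53.1, 56.8, and 28.8 CPM in WT females, 50.7, 54.9, 37.8, and 51.0 CPM in WT males, 38.2, 41.7, 53.7, 51.8, and 48.6 CPM in Ube3a2X females, and 51.6, 56.1, 67.2, 46.6, and 48.1 CPM in Ube3a2X males. The sexes overlapped in both genotypes, with the highest value in a Ube3a2X male. The adjusted p of Cacna1h was 0.229, and its difference was 0.065 with no filter on low counts and 0.075 with 1 surrogate variable.

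**Figure D4:**
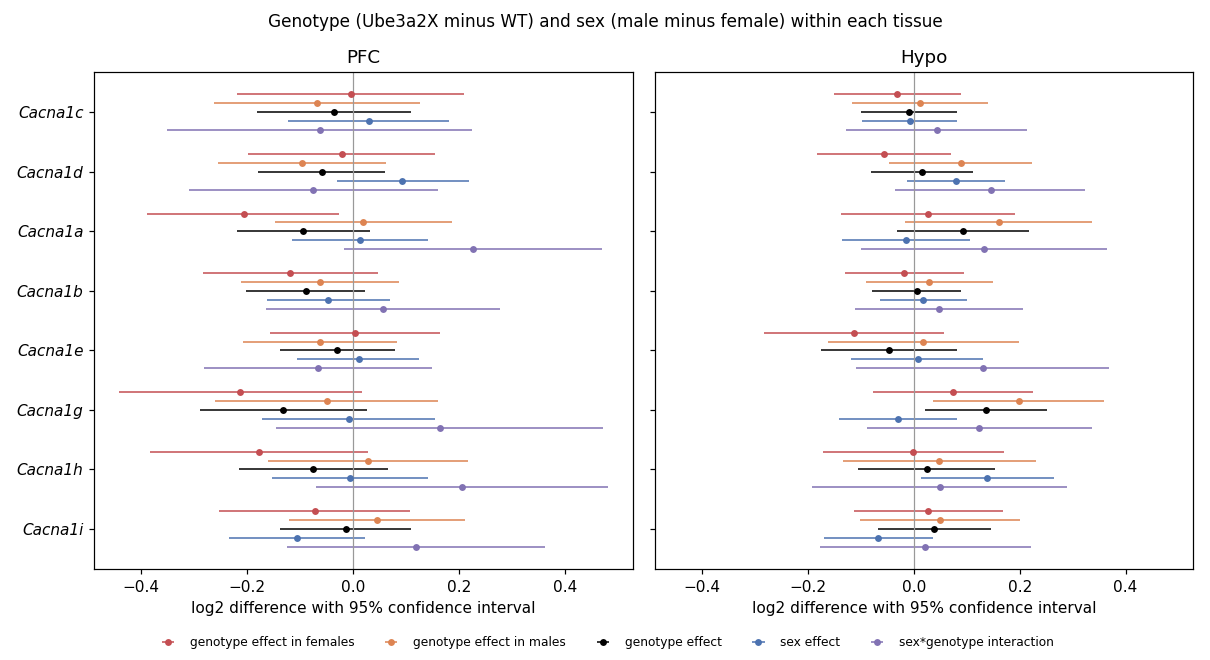
Log2 effects of genotype (Ube3a2X minus WT, also within each sex), sex (male minus female), and the sex*genotype interaction on the 8 alpha1 genes within PFC (left) and Hypo (right), with 95% confidence intervals (x axis). The Cacna1b values in PFC come from a fit without the variance filter. None passed the threshold after adjustment, and the intervals that exclude 0 belong to Cacna1a in PFC females, Cacna1g in Hypo (both sexes together and males), and Cacna1h for sex in Hypo.

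The genes that work with alpha1 subunits were examined from lists of 49 genes, of which 43 were tested between the tissues. Of these, 39 passed the filter on reads in both tissues, of which 29 were higher in PFC, 7 were higher in Hypo, and 3 did not pass. Of all 12569 genes that passed the filter in both, 66.3% were called, 4390 higher in PFC and 3944 higher in Hypo. The other 4 (Cacna2d4, Rem2, Rrad, and Stac) passed it through the Hypo alone, where they are high, so their differences below are a description. Of the cytoplasmic beta subunits, which chaperone Cav1 and Cav2 subunits to the membrane, 3 of 4 were higher in PFC, with Cacnb4 at a log2 difference of 1.76 and Cacnb3 at 1.66. Of the extracellular alpha2delta subunits, Cacna2d3 was higher in PFC (0.59), and Cacna2d2 was higher in Hypo (-1.97), with Cacna2d4 at -0.58. Of the gamma subunits, most of which are known as AMPA receptor auxiliary proteins, 4 of 6 tested were higher in PFC (Cacng3 at 3.02, Cacng8 at 0.97) and 2 in Hypo (Cacng5 at -2.13, Cacng4 at -0.91).

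All 6 calcium-sensor genes were higher in PFC, led by Cabp1 (2.61). All 10 presynaptic partners, part of the release machinery that Cav2 channels serve, were higher in PFC, led by Stx1a (2.90) and Rims1 (2.41), and Snap25 and Syt1 in this list are also general neuronal markers. Of the RGK and STAC modulators, which inhibit channels or keep them at the membrane, Stac2 was higher in PFC (3.27) and Gem in Hypo (-1.26). Stac was at -4.01 with as few as 3 reads in a library, and Rrad at -2.65 with as few as 21. Of the kinases and their anchor, 4 were higher in PFC, led by Camk2a (3.42) and Akap5 (3.06), and Prkaca (-0.37) and Camk2d (-0.24) were higher in Hypo. The sodium leak channel Nalcn, a relative of the alpha1 genes, was higher in Hypo (-0.62), while Cacna1f, of the retina, and Cacna1s, of skeletal muscle, had too few reads to be tested. The 3 that did not pass, named for that reason, were Cacnb2 (-0.08), Cacna2d1 (0.06), and Prkacb (-0.10). Within the tissues, 2 partners were called, both for sex in the Hypo, where 37 partners were tested and 2.33% of all genes were called. Both were higher in males, Cacnb3 (0.16, SE 0.0350, adjusted p = 0.0224) and Camk2a (0.20, SE 0.0415, adjusted p = 0.0175).

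How the members varied together was described over the 38 libraries after the mean of each of the 8 groups was subtracted. The 28 pairs of members had Pearson correlations of 0.11 to 0.85 (median 0.66). Without Hypo WT female 471, which was low in all 8, they ran from -0.41 to 0.80 (median 0.39), and 9 of 28 were negative. In these 37 libraries, the T-type genes Cacna1g and Cacna1h had the highest correlation (0.80), Cacna1g and Cacna1i had 0.735, Cacna1d and Cacna1e had 0.72, and Cacna1e and Cacna1i the lowest (-0.41). When the trend on GC content and length was also removed, the range was -0.33 to 0.60 (median 0.19), Cacna1b and Cacna1g were the highest pair at 0.60, Cacna1g and Cacna1h had 0.47, Cacna1d and Cacna1e 0.30, and Cacna1h and Cacna1i, which had 0.66 before, -0.00. Libraries share depth, RNA quality, and base composition, and the part of these in the correlations was not tested.

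**Figure D5:**
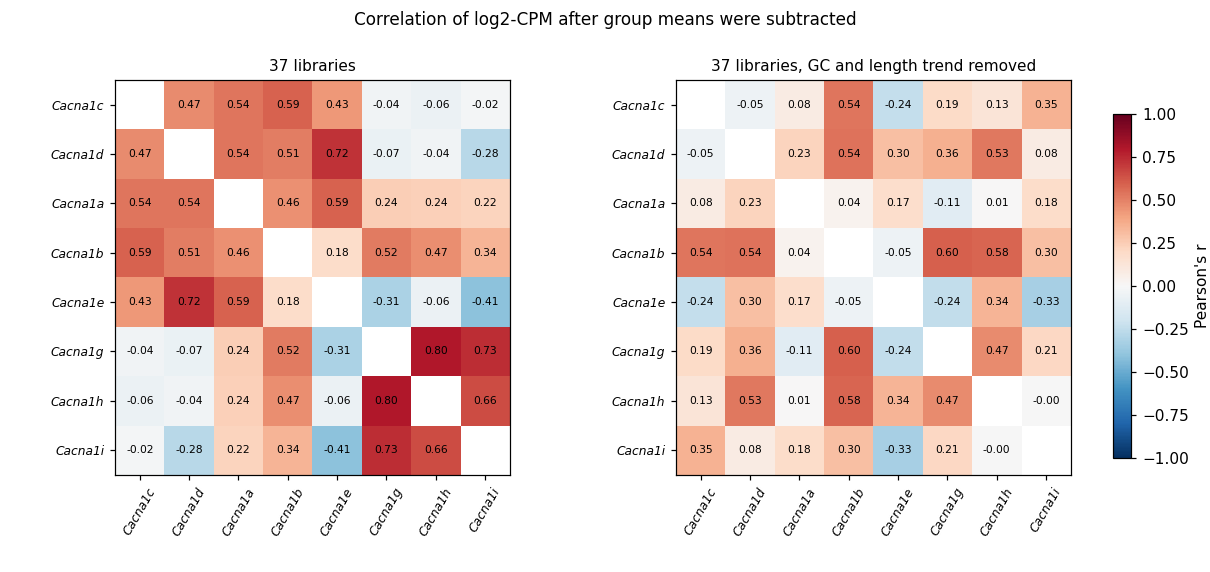
Pearson correlations between the 8 alpha1 genes (both axes) over the 37 libraries without Hypo WT female 471 after subtraction of group means, as counted (left) and with the trend on GC content and length removed (right), where color and numbers give r. The median over the 28 pairs is 0.39 on the left and 0.19 on the right, and Cacna1g with Cacna1h goes from 0.80 to 0.47.

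Likeness to other genes was taken after the group means were subtracted, with the trend on GC content and length left in. It thus does not describe the tissue difference. Among 9543 other genes with at least 1000 reads on average, the 2 whose deviations over the 38 libraries were most like those of each member were found by Pearson's r. For the Cav1 genes they were Man1a2 (0.92) and Arhgap32 (0.92) for Cacna1c, and Vps13c (0.96) and Dync2h1 (0.96) for Cacna1d. For the Cav2 genes they were Man2a2 (0.94) and Gpatch8 (0.91) for Cacna1a, Zzef1 (0.94) and Tecpr2 (0.92) for Cacna1b, and Mmp16 (0.94) and Grik2 (0.92) for Cacna1e. For the Cav3 genes they were Gcn1 (0.89) and Zswim8 (0.87) for Cacna1g, Zswim8 (0.92) and Plec (0.90) for Cacna1h, and Slc12a5 (0.90) and Ptprf (0.89) for Cacna1i. These values rest in part on Hypo WT female 471, without which the correlation of Zzef1 with Cacna1b was 0.72 and at least 1 of the 2 genes was another for every member but Cacna1h.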

How the data were processed

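All libraries (stranded, paired-end mRNA) were prepared together by the authors, who used STAR for alignment to GRCm38 (mm10) and featureCounts for counting on an annotation given as Gencode v24. The strand setting is not given in the sources used here. The deposited count table holds raw reads per gene, with no filter. The table of quality measures deposited by the authors gives RIN and AT dropout as a score, coding, intronic, and expected-strand reads as a fraction (converted here to percent), and the bias between transcript ends as a ratio. Coordinates, exon lengths, and GC content came from GENCODE vM21, in which 53905 of 54165 genes were found. Members, partner lists, and markers were chosen with earlier results of these data known.

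Tests used R 4.3.3 and edgeR 4.0.16 (TMM, glmQLFit with robust estimation, glmQLFTest), with Benjamini-Hochberg adjustment over all genes tested and a call at an adjusted p under 0.05. Within a tissue, a gene needed 100 reads, with at most 1 library below. Between tissues, where all 38 libraries in 8 groups were fitted with RIN, it needed to meet this in either tissue, so a gene high in 1 tissue alone could enter. Within a tissue, as in the study's methods, the 15% of genes that varied least in log2-CPM (prior count 2) were removed too, and RIN and 2 surrogate variables (sva 3.50.0) were covariates. The study used limma-voom, here an alternative (limma 3.58.1), as was DESeq2 1.42.0. Other alternatives were RLE factors, other filters and covariates, an offset for GC content and length, a replicate block, and each library left out. A fit without 3 libraries that stood apart was chosen after seeing the data. The scripts were tested on simulated data. Named are all members, the 2 called partners per list and direction with the largest tissue difference, partners called within a tissue, the 2 genes most like each member, and Ube3a. Another gene that this rule would name is not reported here. Markers, genes that overlap a member, and some other partners are named outside it, some after their values were seen.

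The 13 mice with both tissues pair libraries by animal. Their 2 libraries did not deviate together: the correlation of deviations from the group means was -0.45 to 0.33 (median -0.05), over 0.1 in 3 mice. No 2 libraries of a group were duplicates, since the 72 pairs within groups differed by 13.8 to 688 times the sampling noise (chi-square per degree of freedom).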

Additional observations from a re-analysis of the deposited data

Results flagged for a closer look

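In 64 groups of 4 or 5 libraries (8 members in 8 groups), the highest or lowest library lay apart from the rest by Dixon's test in 5, and chance alone gives about 1 in 20. Of these, 3 came from Hypo WT female 471, which had 78.4 CPM of Cacna1b (the other WT females 169 to 178), 33.6 CPM of Cacna1c (79.4 to 79.9), and 19.98 CPM of Cacna1d (47.4 to 55.9). PFC WT female 397 had 229.2 CPM of Cacna1a, where the others of its group had 153 to 159.4. Hypo Ube3a2X male 238 had 106 CPM of Cacna1c against 77.2 to 81.7, and in the Hypo it was also the highest of all for Cacna1a, Cacna1b, Cacna1d, and Cacna1e.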

How the results depend on the processing

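Between the tissues, 5 members passed averaged over the groups. With the mouse as a fixed replicate block 2 passed, over single omitted libraries 3 to 8, and under the other settings 4 to 7. In WT 5 passed, 2 with that block, 4 to 5 over omitted libraries, and 2 to 6 over all other settings. In Ube3a2X 6 passed, 4 with that block, 3 to 6 over omitted libraries, and 4 to 7 over all other settings. The block also lowered the calls over all genes from 9725 to 5940 on average, from 9261 to 5376 in WT, and from 8765 to 5408 in Ube3a2X, and with no filter on low counts 15474 and 14595 genes were called on average and in WT. The block fit rests on fewer libraries, and more genes were tested with no filter. No within-tissue or interaction comparison called a member under any setting. The sign turned in 227 of 2135 refitted values of the 10 comparisons within a tissue and in 40 of 736 of the interactions of sex with tissue. With the GC and length trend removed, the sex*genotype interaction in PFC turned to -0.13 for Cacna1a, -0.10 for Cacna1h, -0.09 for Cacna1g, and -0.20 for Cacna1i. Cacna1b in WT was 0.026 without RIN, 0.001 with a random replicate block, 0.046 after the GC and length trend was removed, and -0.104 to 0.022 over omitted libraries. Cacna1g in WT was -0.062 with no low-count filter, -0.005 with the trend removed, -0.087 without the 3 libraries, and -0.041 to 0.099 over omitted libraries. Cacna1c in Ube3a2X was -0.054 without PFC Ube3a2X female 468 and up to 0.219 over the other omitted libraries. For genotype by tissue, Cacna1c was 0.013 with the fixed block, and Cacna1e was 0.281 with it, 0.121 with the trend removed, 0.040 without the 3 libraries, 0.050 without Hypo WT female 471, and as low as -0.124 over omitted libraries. Cacna1a for genotype in PFC females was 0.002 with the trend removed. The cause of these changes was not tested. Each member had 830 reads or more in every library, and with 1 library per mouse and tissue, spread between mice and spread between libraries cannot be told apart.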
